A study of Mus musculus with 47 samples.

Results

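The 7 mouse genes that encode the cyclin-dependent kinase inhibitors of the Cip/Kip and INK4 families, Cdkn1a, Cdkn1b, Cdkn1c, Cdkn2a, Cdkn2b, Cdkn2c and Cdkn2d, were examined among the 22380 protein-coding genes of the annotation. They were taken as a fixed list by name and by no measured value, although the list was set with earlier results of these data known. Each gene was followed by its annotated span in the mm9 mouse genome. The study profiled H3K27me3, H3K27ac and H3K4me1 by ChIP-seq in the liver of male and female mice aged 7 weeks. Floxed littermate controls were Ezh2 f/f, with no other allele named in their labels. E1/E2-KO mice were Ezh1-/-, Ezh2 f/f and carried the AC transgene, in which the albumin promoter drives Cre. All 4 groups thus shared the floxed Ezh2 allele, E1/E2-KO mice lacked Ezh1 in every cell, and Ezh2 was removed in hepatocytes, so that endothelial, Kupffer and stellate cells of these livers kept it. For each mark a group had 4 livers, and E1/E2-KO females had 3 for H3K4me1, which makes 47 samples. The reads of the livers of a group were pooled by the authors before sites were called, which leaves 12 lists of positions, 1 for each mark and group, with no score and no replicate. No difference between groups could therefore be tested against the spread between livers, and all comparisons below are descriptions of these lists.

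Cyclin-dependent kinases drive cells through the division cycle, and their inhibitors hold them back. Inhibitors of the INK4 family bind Cdk4 and Cdk6 and keep D-type cyclins from activating them, whereas those of the Cip/Kip family act on complexes of several cyclins and kinases. The Cdkn2a locus also encodes Arf, which shares exons with p16Ink4a in another reading frame and stabilizes p53 by binding Mdm2, and Cdkn1a is a classical p53 target. Ezh1 and Ezh2 are the catalytic subunits of polycomb repressive complex 2, which places H3K27me3, a mark of silenced genes. The Cdkn2a and Cdkn2b locus is a well known polycomb target in proliferating cells. H3K27ac marks active promoters and enhancers, and H3K4me1 marks enhancers, active or not, and the flanks of promoters. In bulk liver, a mark carried by fewer cells and a weaker mark in each cell cannot be told apart.

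The members fell into 3 patterns of H3K27me3, shown in the map of coverage by list. Cdkn1a was covered by H3K27me3 along its whole length in both control lists and not at all in either E1/E2-KO list. Cdkn1c, Cdkn2a and Cdkn2b were covered along their whole length in all 4 lists. Cdkn1b, Cdkn2c and Cdkn2d were free of called H3K27me3 in all 4 lists.

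**Figure D1:**
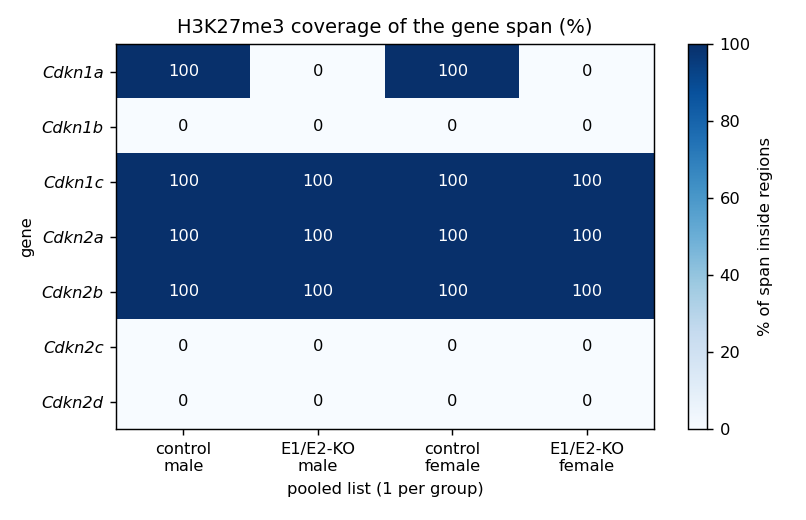
Percent of each gene span inside called H3K27me3 regions (shade and printed value) in the 4 pooled lists, 1 column per group and 1 row per gene. Cdkn1a goes from 100% to 0% in both sexes, 3 genes stay at 100% and 3 stay at 0%.

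Promoters of the genes on which these patterns turn are given here as RefSeq windows of 300 bases (table build GRCm38.p6), and each was placed in mm9 by an exact match to NCBIM37. In all of them capitals mark CpG dinucleotides, which are dense in CpG islands, where polycomb complexes are known to gather. The promoter of Cdkn1a, which encodes p21, lies at chr17:29230464-29230763 on the plus strand and is shown because it left H3K27me3. The Cdkn2a promoters lie at chr4:88940474-88940773 on the minus strand for the distal start, from which Arf is made, and at chr4:88928047-88928346 on the minus strand for the proximal start of p16Ink4a. Both are shown because they share an H3K27me3 region and differ in H3K27ac. The promoter of Cdkn2b, which encodes p15, lies at chr4:88956892-88957191 on the minus strand. That of Cdkn1b, which encodes p27, lies at chr6:134870169-134870468 on the plus strand and is shown as an example without H3K27me3.
Cdkn1a promoter: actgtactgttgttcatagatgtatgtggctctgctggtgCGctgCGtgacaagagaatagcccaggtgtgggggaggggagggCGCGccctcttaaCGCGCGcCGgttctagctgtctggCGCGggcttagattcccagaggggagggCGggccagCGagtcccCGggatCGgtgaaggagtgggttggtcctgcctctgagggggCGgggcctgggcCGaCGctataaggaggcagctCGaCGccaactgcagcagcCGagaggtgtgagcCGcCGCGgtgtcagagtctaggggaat
Cdkn2a distal promoter: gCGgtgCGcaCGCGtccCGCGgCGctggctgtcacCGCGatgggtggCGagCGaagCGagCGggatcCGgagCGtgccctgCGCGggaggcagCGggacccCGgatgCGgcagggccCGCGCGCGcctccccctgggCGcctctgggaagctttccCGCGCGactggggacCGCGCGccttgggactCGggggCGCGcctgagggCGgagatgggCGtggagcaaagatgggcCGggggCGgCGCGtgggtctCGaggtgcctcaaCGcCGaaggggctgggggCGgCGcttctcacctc
Cdkn2a proximal promoter: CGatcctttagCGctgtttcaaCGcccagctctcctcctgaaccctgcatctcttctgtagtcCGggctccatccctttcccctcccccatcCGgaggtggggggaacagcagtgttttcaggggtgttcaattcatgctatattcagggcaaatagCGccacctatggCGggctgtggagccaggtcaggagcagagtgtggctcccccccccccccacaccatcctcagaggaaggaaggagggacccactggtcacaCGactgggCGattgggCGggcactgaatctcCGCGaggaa
Cdkn2b promoter: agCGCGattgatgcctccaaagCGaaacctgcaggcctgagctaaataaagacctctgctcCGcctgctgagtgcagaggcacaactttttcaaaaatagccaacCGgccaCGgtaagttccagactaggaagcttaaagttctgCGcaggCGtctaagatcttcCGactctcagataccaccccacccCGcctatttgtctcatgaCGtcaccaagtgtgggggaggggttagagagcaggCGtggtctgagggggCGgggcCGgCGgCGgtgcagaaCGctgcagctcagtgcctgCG
Cdkn1b promoter: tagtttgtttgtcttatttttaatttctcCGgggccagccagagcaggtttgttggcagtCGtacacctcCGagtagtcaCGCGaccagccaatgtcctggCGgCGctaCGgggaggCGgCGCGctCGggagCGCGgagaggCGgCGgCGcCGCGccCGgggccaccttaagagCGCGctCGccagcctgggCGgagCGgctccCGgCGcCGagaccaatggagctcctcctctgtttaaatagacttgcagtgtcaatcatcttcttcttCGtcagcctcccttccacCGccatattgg

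CpG counts varied among promoters with H3K27me3. The distal Cdkn2a promoter holds 45 CpG, a count reached by 1.93% of the 32851 RefSeq promoters of this length, and the proximal one holds 12, reached by 39.6%. The median over all promoters is 7. The Cdkn1a promoter printed above holds 23 CpG (reached by 21.5%), and the window at the upstream Cdkn1a start, which left H3K27me3 in the same lists, holds 2 (85.9%). The promoter of Cdkn2b holds 18 (29.7%), and that of Cdkn1b, which bore no H3K27me3, holds 30 (11.7%). RefSeq windows matched 6 of the 7 members with 9 entries. The letters GGGCGG, the core of a GC box, occur on either strand in 7 of the 9 entries, among them the 5 printed above, and in 35.7% of all promoters. The letters TATAAA, found in 13.6% of promoters, and TTTGGCGC, an E2F-like sequence found in 0.514%, occur in none of the 9 entries. CACGTG, the E-box core, occurs in 7.15% of promoters and among the 9 entries only in the intragenic Cdkn2c start. Only these exact letters were searched, so the near match TATAAG in the printed Cdkn1a promoter was not counted. These are matches of letters and not sites of binding.

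Of the Cip/Kip genes, Cdkn1a (p21, an inhibitor induced by p53) lies on chr17:29227924-29237667, plus strand, and has 3 annotated starts. H3K27me3 covered 100% of the span in control males, 0% in E1/E2-KO males, 100% in control females and 0% in E1/E2-KO females. It was the only member whose coverage fell by 25 points or more, 1 of 7 in each sex, whereas 6.07% of all protein-coding genes fell that far in males and 7.58% in females. With the widest 50% of regions alone, 0 members fell that far in either sex, beside 6% of all genes in males and 7.74% in females. No member rose by 25 points or more, compared with 9.85% of all genes in males and 6.29% in females. Complete coverage in both control lists with none in both E1/E2-KO lists was found for 123 of the 22380 genes (0.55%). Of the 3546 genes that were completely covered in both controls, these were 3.47%, whereas 77.6% stayed at 100% in both E1/E2-KO lists.

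The control region over Cdkn1a ran from 29210001 to 29238000 in males (28000 bp) and from 29216001 to 29238000 in females (22000 bp). Both controls thus ended at the same base, 333 bp beyond the gene. The control female region lay 1600 bp from the next one upstream, less than the stated SICER gap of 2400 bp, and with regions that close joined it measured 53200 bp, while coverage of Cdkn1a stayed the same in all 4 lists. As deposited, both were of ordinary size, as 45% of the control male regions and 44.9% of the control female regions were narrower. In E1/E2-KO males a region of 37200 bp began farther upstream and ended at 29224000, and in E1/E2-KO females a region of 35200 bp ended at the same base. The stretch inside both control lists and outside both E1/E2-KO lists was chr17:29224001-29238000, 14000 bp that hold the whole gene. The upstream region of E1/E2-KO liver ended 6717 bp before the main Cdkn1a start in both sexes, whereas in controls the next region upstream of the one on the gene ended 23917 bp (males) and 16317 bp (females) before it. Within 50 kb on both sides, H3K27me3 covered 75.9% in control males, 71.5% in E1/E2-KO males, 82.1% in control females and 64.9% in E1/E2-KO females. Downstream, the next region lay 8333 bp beyond the gene in control males and 8733 bp in control females. In E1/E2-KO liver it lay 8733 bp (males) and 13933 bp (females) beyond the gene. The absence from the gene in E1/E2-KO liver thus ran on into a gap that both controls already had downstream. The neighbourhood as a whole stayed largely covered. The neighbours, named after their values were seen, show the same. Gm16197, a lincRNA upstream, was covered at 85.1%, 100%, 93% and 100% in the order control male, E1/E2-KO male, control female, E1/E2-KO female, and Rab44, downstream, at 100% in all 4 lists. Srsf3, a splicing factor gene farther upstream, was at 0% in all 4.

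**Figure D2:**
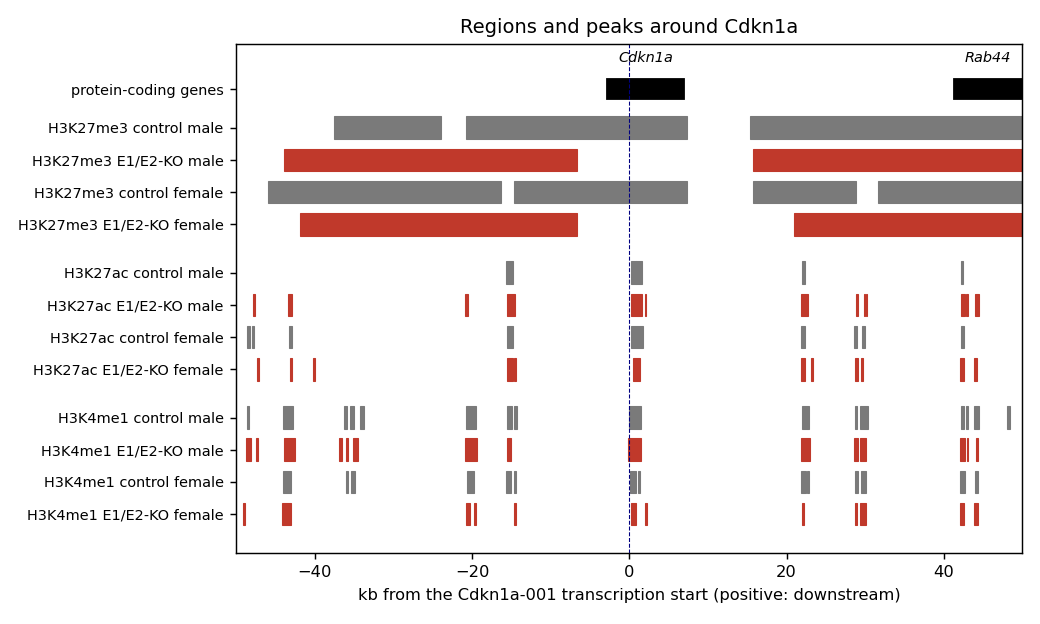
Called H3K27me3 regions and H3K27ac and H3K4me1 peaks as bars, 1 row per pooled list (grey, control; red, E1/E2-KO), against the distance in kb from the main Cdkn1a start (dashed line), with protein-coding genes in black. The E1/E2-KO regions end 6717 bp upstream of the start, while all 4 H3K27ac lists have a peak just downstream of it.

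H3K27ac was already present at Cdkn1a in control liver. Peaks lay in the intron just downstream of the main start in all 4 lists, namely 2 in control males (637 and 711 bp), 2 in E1/E2-KO males (1378 and 205 bp), 1 in control females (1478 bp) and 1 in E1/E2-KO females (908 bp). The 205 bp peak of E1/E2-KO males, which began 1930 bp downstream of the start, had no counterpart in the other 3 lists. The bases inside H3K27ac peaks were 1348 and 1583 in control and E1/E2-KO males and 1478 and 908 in control and E1/E2-KO females, so that E1/E2-KO liver had more in males and fewer in females. The whole H3K27ac lists did the same, with 17.3 Mb in control males, 32 Mb in E1/E2-KO males, 31.2 Mb in control females and 26.5 Mb in E1/E2-KO females. H3K4me1 covered 1463, 1558, 1058 and 1026 bases in the same order, and a peak reached over the main start in both male lists and in neither female list. The start of Cdkn1a was thus inside H3K27me3 and within 1 kb of an H3K27ac peak in both controls, and only the latter remained in E1/E2-KO liver. Of 5 endothelial markers, 3 also had less H3K27me3 in both E1/E2-KO lists. The start of 4 of 5 endothelial markers was inside H3K27me3 in both controls and that of 2 in both E1/E2-KO lists, and Pecam1 coverage was 100% in control males, 0% in E1/E2-KO males, 87.6% in control females and 0% in E1/E2-KO females. In the same order Cdh5 had 100%, 26.3%, 61.8% and 10.4%, and Stab2 had 87.3%, 0%, 64.2% and 0%, whereas Kdr stayed at 100% and Lyve1 at 0% in all 4 lists. H3K27ac was called within 1 kb of the start of 2, 4, 3 and 4 of the 5 markers. H3K27me3 lay over the start of 4 of 4 stellate cell markers in every list. It lay over that of 4, 2, 3 and 3 of 4 Kupffer cell and leukocyte markers, of which Clec4f and Cd5l stayed at 100% coverage in all 4 lists, while Ptprc had 99.3%, 56.4%, 73.1% and 84.8% and Csf1r had 90.2%, 98.6%, 87.2% and 4.42%. The part of such cells in the Cdkn1a result was not tested.

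Likeness to Cdkn1a was measured as the Euclidean distance over 12 values among 16526 genes of at least 5 kb. The values were the percent of the span inside H3K27me3 and the percent of the span with 10 kb flanks inside each of the other marks, in each list. The 3 closest were Sepn1 (2.69 points), Aif1 (3.18 points) and Gipc1 (3.2 points), all with H3K27me3 at 100%, 0%, 100% and 0%. That shared pattern follows from the measure and is not a separate result. H3K27me3 values of 0% and 100% weigh far more in the distance than the small percents of the other marks.

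Cdkn1b (p27, which restrains Cdk2 in resting cells) lies on chr6:134870419-134875531, plus strand, and had no H3K27me3 in any list. The nearest region ended 1618 bp before it in control males, 2418 bp in E1/E2-KO males and 1618 bp in control females. In E1/E2-KO females the nearest was 98869 bp away on the other side. Coverage within 50 kb was accordingly 27%, 20.5%, 27.7% and 0% in the order control male, E1/E2-KO male, control female, E1/E2-KO female. A pair of H3K27ac peaks lay at the start in every list, 1 upstream of it and 1 that began 14 bp (control males), 4 bp (E1/E2-KO males) and 11 bp (control females) downstream of it or at the start itself (E1/E2-KO females). The latter peak was 1019 bp wide in control males, 1049 bp in E1/E2-KO males, 1041 bp in control females and 1072 bp in E1/E2-KO females. A further group of peaks lay 6433 to 7522 bp downstream of the start. All H3K27ac peaks within 10 kb overlapped a peak of the other genotype in both sexes, so that none was gained or lost.

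Cdkn1c (p57, an imprinted inhibitor expressed from the maternal allele) lies on chr7:150644255-150646955, minus strand, and was at 100% in all 4 lists, but the region around it differed in extent. It spanned 177600 bp in control males, 117200 bp in E1/E2-KO males, 51600 bp in control females and 94000 bp in E1/E2-KO females. In control females it touched another region without a base between them, and the unbroken stretch was 78800 bp. Upstream of the gene the control regions ended 12645 bp (males) and 11445 bp (females) beyond the span, and the E1/E2-KO regions went on to 53045 bp and 55045 bp. The neighbour Slc22a18, a transporter gene upstream, was covered at 78.2% in control males, 100% in E1/E2-KO males, 36.1% in control females and 100% in E1/E2-KO females. On the other side Kcnq1, a potassium channel gene, had 70.7%, 50.6%, 51% and 15.9% in the same order. Phlda2 stayed at 100% in all 4.

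**Figure D3:**
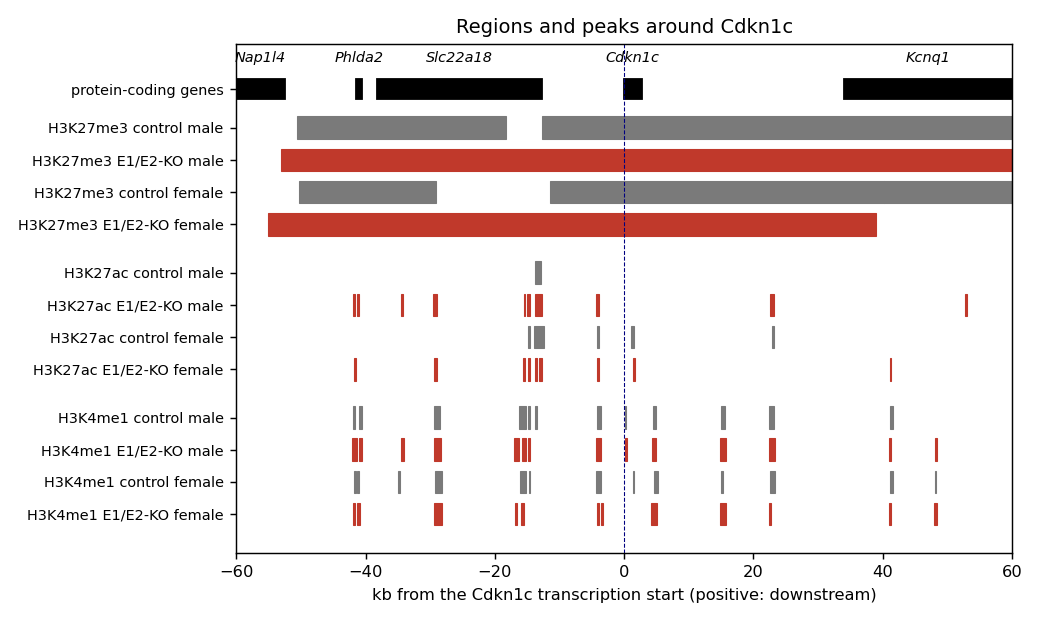
Called H3K27me3 regions and H3K27ac and H3K4me1 peaks as bars, 1 row per pooled list (grey, control; red, E1/E2-KO), against the distance in kb from the Cdkn1c start (dashed line), with protein-coding genes in black. Cdkn1c is covered in all 4 lists, and the gap that both controls show upstream of it, at Slc22a18, is closed in both E1/E2-KO lists.

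H3K27ac within 10 kb of Cdkn1c was absent from the control male list and present in the other 3. A peak began 3882 bp upstream of the start in E1/E2-KO males (513 bp wide) and control females (331 bp) and 3836 bp upstream in E1/E2-KO females (438 bp). A peak within the gene was called only in females, 559 bp wide in controls and 268 bp in E1/E2-KO. H3K4me1 was called in 3 peaks in each list, and the upstream site had one in all 4. The control male H3K27ac list is the shortest of its mark, with 29359 peaks against 49702 to 55930 in the other 3. When equal numbers of the widest peaks were taken from the control and E1/E2-KO male lists, the gain at Cdkn1c was still called.

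Of the INK4 genes, Cdkn2a (p16Ink4a and Arf) lies on chr4:88920377-88940557 and Cdkn2b (p15) on chr4:88952198-88956941, both on the minus strand and 11640 bp apart. A single H3K27me3 region held both genes in every list. It ran from 88910801 to 88962000, 51200 bp, in control males, E1/E2-KO males and control females, and from 88911201 to 88962000, 50800 bp, in E1/E2-KO females. The edges therefore differed by no more than 1 SICER window of 400 bp. Only 77 of the 16856 control male regions outside chromosome Y (0.457%) kept both edges within that distance in the other 3 lists. Positions do not tell how much mark the region carried, since the lists hold no signal. The neighbouring region below Cdkn2a also ended at the same base in all 4 lists, 88906000, but was 15600 bp wide in both controls, 10800 bp in E1/E2-KO males and 9200 bp in E1/E2-KO females. It covers part of Gm12606, a processed transcript, which was at 63.9%, 51.2%, 63.9% and 45.9%.

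**Figure D4:**
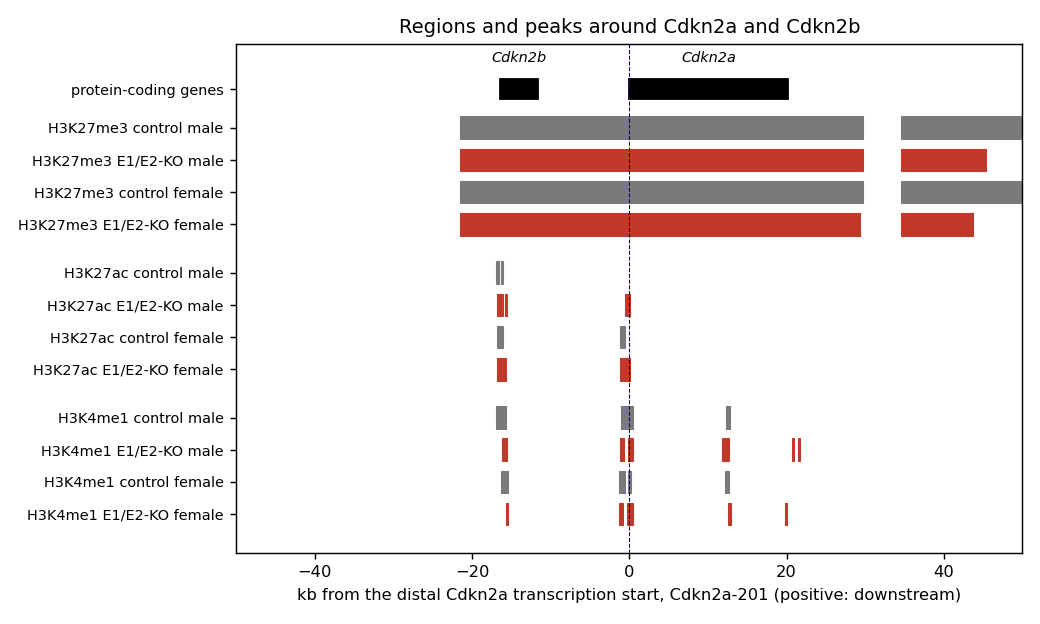
Called H3K27me3 regions and H3K27ac and H3K4me1 peaks as bars, 1 row per pooled list (grey, control; red, E1/E2-KO), against the distance in kb from the distal Cdkn2a start (dashed line), with protein-coding genes in black. The H3K27me3 region over both genes has the same edges to within 400 bp in all 4 lists, and H3K27ac reaches over the distal start in the E1/E2-KO lists only.

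Within this constant region H3K27ac differed by start. The proximal Cdkn2a start, that of p16Ink4a, had no H3K27ac peak in any list. The distal start, that of Arf, lay inside an H3K27ac peak of 650 bp in E1/E2-KO males and of 1244 bp in E1/E2-KO females, and inside none in controls. The 300 bases of the distal promoter printed above were accordingly inside H3K27ac for 0 bases in control males, 300 in E1/E2-KO males, 0 in control females and 300 in E1/E2-KO females. A start inside H3K27ac in both E1/E2-KO lists and in neither control list was found for 447 of the 22380 genes (2%) and among the members for Cdkn2a alone. Control males had no H3K27ac peak within 10 kb of the gene, whereas control females had 1 of 559 bp that began 548 bp upstream of the distal start and overlapped the E1/E2-KO female peak. In females the difference was therefore one of extent, and by an overlap of 1 bp no peak was gained, whereas with sharing set at 50% of the peak Cdkn2a counted as gained. In males the gain at Cdkn2a was still called with equal numbers of the widest peaks of both lists. H3K4me1 lay over the distal start in all 4 lists. It lay over the proximal start in 3 lists and 70 bp inside the gene in E1/E2-KO females. E1/E2-KO males had 2 further H3K4me1 peaks near the start of Gm12606 and E1/E2-KO females 1 within Cdkn2a, none of which overlapped a peak of another list.

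Cdkn2b had H3K27ac at its start in all 4 lists although the gene was completely covered by H3K27me3 in each. In control males 2 peaks of 235 and 321 bp flanked the start. In the other lists a peak lay over it, 842 bp wide in E1/E2-KO males, 827 bp in control females and 1064 bp in E1/E2-KO females. E1/E2-KO males had another peak of 246 bp in the intron, which overlapped none in control males but overlapped the E1/E2-KO female peak. H3K27ac bases within 10 kb were 556 in control and 1088 in E1/E2-KO males and 827 and 1064 in females. H3K4me1 bases were lower in E1/E2-KO liver, 1262 against 613 in males and 795 against 228 in females, and the single H3K4me1 peak reached over the start in control males only. More H3K27ac bases and fewer H3K4me1 bases in E1/E2-KO liver of both sexes were found for Cdkn2b alone, 1 of 7 members, beside 5.07% of all genes. The whole H3K4me1 lists were also shorter in E1/E2-KO liver, 35.3 against 36.2 Mb in males and 24 against 27.9 Mb in females. For this mark the E1/E2-KO female list pools 3 livers and the control female list 4, and the effect of that difference was not tested.

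Cdkn2c (p18) lies on chr4:109333481-109339794, minus strand, on the same chromosome but far from Cdkn2a, and had no H3K27me3 within 50 kb in 3 lists. In E1/E2-KO females a region ended 29080 bp from it and took up 13.2% of the span with its flanks. In each list 5 H3K27ac peaks lay within 10 kb. Of these, 1 covered the main Cdkn2c start and 1 lay just inside the gene, whereas the other 3 lay nearest to the starts of 9630013D21Rik, a lincRNA, and of Faf1. None was gained or lost. H3K4me1 peaks numbered 4 in control males, 2 in E1/E2-KO males, 2 in control females and 1 in E1/E2-KO females, and the peak beside the main start was called in all 4.

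Cdkn2d (p19Ink4d) lies on chr9:21092907-21095653, minus strand. No region or peak of any mark overlapped the span in any list, but this cannot be read as absence. Of the 2698 sequences of 50 bases in the span, the length of the reads, only 5.67% occur once in the genome, and 94.3% recur at Gm4694, a near-identical copy on chr9:123836860-123839608. No mark was called at that copy or within 10 kb of it either. In the other 6 members 95.9% to 100% of such sequences were unique. The H3K27ac peaks within 10 kb of Cdkn2d, 1 per list, lay nearest to the start of its neighbour Kri1, and the member is counted below with that limit.

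Across the members, 4 of 7 were covered by H3K27me3 over 50% or more of the span in control males, 3 in E1/E2-KO males, 4 in control females and 3 in E1/E2-KO females. Over all protein-coding genes the shares were 29.9%, 32.5%, 29.7% and 28.7%. The median coverage of the members was 100%, 0%, 100% and 0%, which in a list of 7 follows the change of Cdkn1a alone, and the median over all genes was 0 in every list. Complete coverage in all 4 lists, as for 3 members, was found for 12.3% of all genes, and none in all 4, as for the other 3, for 42.6%.

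Gains of H3K27ac peaks, meaning a peak of the E1/E2-KO list within 10 kb of the span that overlaps none in control, were found in males for 4 of 7 members, Cdkn1a, Cdkn1c, Cdkn2a and Cdkn2b, beside 47.5% of all genes, and losses for 0 beside 9.53%. These 4 were also the members with H3K27me3 in control liver. Of the 6693 genes covered over 50% or more of the span in control males, 49.1% gained a peak, a share near that of all genes. When the widest peaks were taken in equal numbers from both lists, the gains at Cdkn1a and Cdkn2b were lost, which leaves 2 of 7 members beside 23% of all genes, and with peaks within 1 kb merged the same 2 members were left, beside 40.2%. In females only Cdkn2d gained a peak (28.7% of all genes) and only Cdkn2d lost one (31.7%), both near Kri1. For H3K4me1, 3 members gained a peak in males (44.5% of all genes) and 2 lost one (45.6%), and in females 4 gained (39.7%) and 4 lost (46.3%). These counts lie near what such shares give for 7 genes. The number of peaks per gene, drawn in the bar plot of peaks within 10 kb, differed by at most 2 between control and E1/E2-KO liver of a sex.

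**Figure D5:**
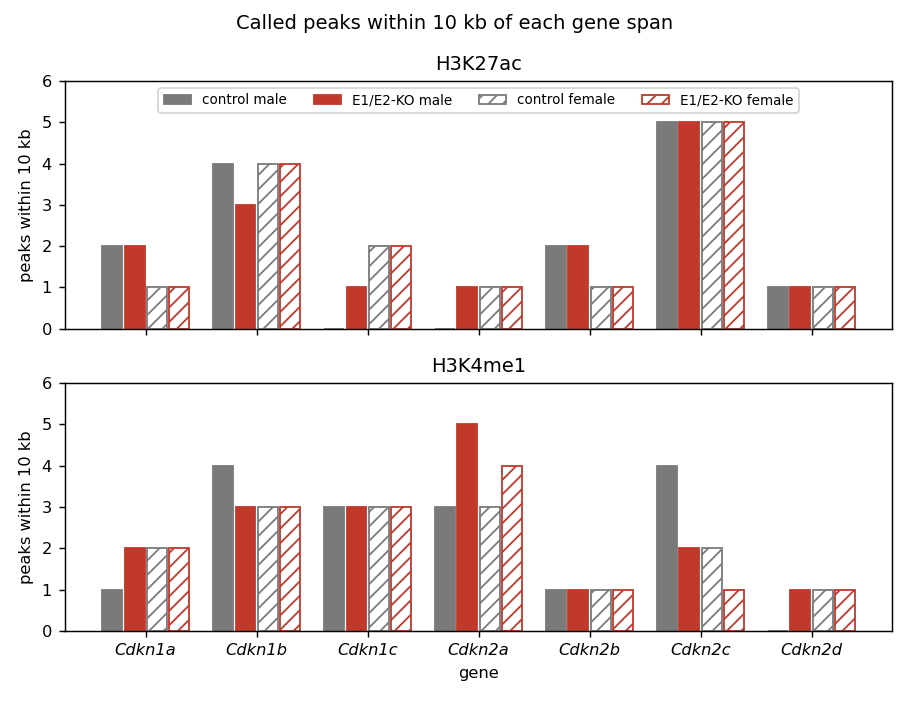
Number of called H3K27ac (upper panel) and H3K4me1 (lower panel) peaks within 10 kb of each gene span, with 1 bar per pooled list (grey, control; red, E1/E2-KO; filled, male; hatched, female). No H3K27ac bar is drawn for Cdkn1c and Cdkn2a in control males because the count is 0.

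An H3K27ac peak lay within 1 kb of a start for 4 members in control males and 5 in each other list, beside 47.5%, 54.9%, 53.8% and 54.5% of all genes. An H3K4me1 peak did so for 5, 5, 4 and 4 members in the same order, beside 53%, 52.1%, 46% and 42.3%. A start inside H3K27me3 with H3K27ac within 1 kb was found for Cdkn1a and Cdkn2b in control males (8.57% of all genes), for Cdkn2a and Cdkn2b in E1/E2-KO males (19.1%), for Cdkn1a, Cdkn2a and Cdkn2b in control females (13.5%) and for Cdkn2a and Cdkn2b in E1/E2-KO females (14.2%). Cdkn2b was in this state in all 4 lists. Whether the marks lay on the same chromosomes or in different cells cannot be told apart in bulk liver.

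The other genes of the pathway were 29 kinases, cyclins, retinoblastoma proteins, E2F factors, p53 with Mdm2 and components of polycomb repressive complex 1. In the order control male, E1/E2-KO male, control female, E1/E2-KO female, 16, 16, 18 and 18 of them were at 0% H3K27me3 coverage. H3K27me3 covered 50% or more of 6, 7, 7 and 6 of them in the same order, beside 29.9%, 32.5%, 29.7% and 28.7% of all genes. In males 2 fell by 25 points or more and 4 rose, beside 6.07% and 9.85% of all genes, and in females 2 fell and 3 rose, beside 7.58% and 6.29%. These counts lie near such shares, and the median of the 29 genes was 0 in every list. Bmi1, a subunit of polycomb repressive complex 1 known for repressing Cdkn2a, had 94.2% in control males, 2.66% in E1/E2-KO males, 94.2% in control females and 56.8% in E1/E2-KO females. It was the only gene of the list that fell by 25 points or more in both sexes. E2f1, named after its values were seen, was the only one that rose that far in both, from 69.5% to 96.2% in males and from 57.8% to 100% in females. Cdk4, the kinase bound by the INK4 inhibitors, went from 0% to 100% in males and stayed at 0% in females. Ccnd1, the cyclin D1 gene, had 100%, 54.1%, 56.3% and 42%. Ccne1, cyclin E1, had 22.5%, 26.7%, 0% and 68.6%. E2f2 had 0%, 66.2%, 26.9% and 8.33%, and Ccna2, cyclin A2, had 53.2% in control females only. H3K27ac lay within 1 kb of the start of 20, 26, 26 and 25 of the 29 genes in the order control male, E1/E2-KO male, control female, E1/E2-KO female, beside 47.5%, 54.9%, 53.8% and 54.5% of all genes. The lowest count comes from the shortest H3K27ac list.

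The lists bore the marks of liver tissue. Among 7 hepatocyte markers H3K27ac was called within 1 kb of the start of 4 to 6 in each list, with Alb, Ttr, Apob and Hnf4a in all 4, and none of 3 muscle and neuron markers had it, all of which were inside H3K27me3 in every list. H3K27me3 lay over the start of 0 hepatocyte markers in both controls, 3 in E1/E2-KO males and 2 in E1/E2-KO females. Apoa1, Tat and Hnf4a were at 0% coverage in both controls. They had 100%, 100% and 89.1% in E1/E2-KO males and 50.3%, 65.8% and 71% in E1/E2-KO females. Ttr, Apob and Cps1 stayed at 0% in all 4 lists, and Alb had 2.73% in E1/E2-KO females only. Kupffer cell and leukocyte markers had H3K27ac at 0, 0, 1 and 0 of 4 starts and stellate cell markers at 1, 1, 2 and 2 of 4. H3K27me3 regions numbered 15603 to 19796 per list and covered 707 to 766 Mb. H3K4me1 peaks numbered 51417 to 69797. The number of reads behind each list is unknown, so a gene listed at 0% is one where no region was called, and not one shown to lack the mark. Likewise a gene at 100% in an E1/E2-KO list is one inside a called region, and how much mark it kept is not shown. Peak lists do not show the Ezh1 or Ezh2 deletion itself. Both genes had H3K27ac within 1 kb of the start in all 4 lists. H3K27me3 covered 1.63% of Ezh1 in control males, 53.1% in E1/E2-KO males, 0% in control females and 53.1% in E1/E2-KO females, and 0% of Ezh2 in all 4.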

How the data were processed

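ChIP was carried out by the authors on individual livers. Their 50 nt paired-end reads were concatenated over the livers of a group and mapped with Bowtie2 (version 2.3.2). SICER (version 1.1) served for H3K27me3 regions, with windows of 400 bp and a stated gap of 2400 bp. In the deposited lists 4.43% to 5.72% of neighbouring regions nevertheless lie within that distance, and widths are given as deposited. MACS2 (version 2.1.1) served for peaks of the other marks. The 12 deposited lists hold the chromosome, start and end of each site in mm9 and no value of signal. The treatment of reads that map to several places, and the read depth, are not given in the sources used here.

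Starts were read as counted from 0 and are printed as counted from 1, and 1 base was added to SICER ends. Gene spans and starts came from GENCODE release M1 on NCBIM37, which is mm9. Coverage is the percent of a span inside regions, and a change was counted from 25 points. Peaks were taken within 10 kb of the span, and sites of 2 lists were called shared from an overlap of 1 bp. All protein-coding genes served as background. No test was run because each group has 1 list. The members and gene lists were chosen with earlier results of these data known. Named are all 7 members, up to 6 cell cycle genes with the largest change, genes within 50 kb of Cdkn1c, Cdkn2a and Cdkn2b, and the 3 genes most like a member that changed by 25 points or more. Neighbours of Cdkn1a, Cdkn2c and Cdkn2d and the copy of Cdkn2d were added after values were seen. Scripts ran under Python 3.11.15 with NumPy 2.4.6 and matplotlib 3.10.9. Tested on simulated data, the overlap script found all of 300 removed and 200 added peaks.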

Additional observations from a re-analysis of the deposited data

Results flagged for a closer look

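For 5 pairs of gene and mark, the number of bases inside peaks within 10 kb of the span changed in opposite directions in males and females when E1/E2-KO was compared with control. H3K27ac at Cdkn1a changed by 235 bases in males and by -570 in females, and H3K4me1 at Cdkn1a by 95 and -32. H3K27ac changed by 436 and -154 bases at Cdkn1b, by 513 and -184 at Cdkn1c, and by 388 and -947 at Cdkn2c. Each sex has 1 pooled list per genotype, so the difference between the sexes was not tested. The same combination, more bases in males and fewer in females, was found for H3K27ac in 44.3% of all 22380 protein-coding genes and for H3K4me1 in 19.6%. The whole H3K27ac lists moved likewise, from 17.3 to 32 Mb in males and from 31.2 to 26.5 Mb in females, so these 4 H3K27ac values are not particular to the members.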

How the results depend on the processing

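No paired analysis was possible because each group is 1 list of pooled livers, and for the same reason no liver could be left out. Of 84 values of 12 counts of members under alternative settings, 53 stayed within 1.5 times the count reported and 31 did not. Only counts were compared, and the members behind a count that stayed could differ. Each count below is of 7 members and is followed in parentheses by the share of all protein-coding genes under the same setting. With the widest 50% of regions the members that lost H3K27me3 were 0 (6%) in males and 0 (7.74%) in females, since the control regions on Cdkn1a are narrower than the median. The other settings for H3K27me3 coverage, among them a change of 10 or 50 points, spans extended by 3 kb and equal numbers of regions, moved no count. Joining regions within 2400 bp, an alternative chosen after seeing the data, moved none either. Within 50 kb, H3K27ac was gained by 7 (69.9%) in males and 4 (52.6%) in females and lost by 1 (20.2%) and 3 (55.4%), and H3K4me1 was gained by 7 (68.8%) and 7 (64.6%) and lost in males by 5 (68.5%). Within 1 kb of a start, H3K27ac was gained by 2 (16.2%) in males and 0 (6.02%) in females and lost by 0 (7.35%) in females, and H3K4me1 was gained by 1 (13%) in males and 0 (11.1%) in females and lost by 1 (16.8%) and 0 (17.3%). For peaks that overlap the span, H3K27ac was gained by 0 (18.7%) and lost by 0 (20.6%) in females, and H3K4me1 was gained by 1 (29.5%) in males and 2 (25.5%) in females and lost by 1 (29.2%) and 2 (30%). With peaks within 1 kb merged, H3K27ac was gained by 2 (40.2%) and H3K4me1 lost by 1 (37%) in males. With equal numbers of the widest peaks, H3K27ac was gained by 2 (23%) and lost by 1 (22.2%) in males. When sharing required an overlap of 50%, H3K27ac was gained by 2 (31.9%), Cdkn2a and Cdkn2d, and lost by 2 (37.7%), Cdkn1c and Cdkn2d, in females. With the widest 50% of peaks, H3K27ac was lost by 2 (18.2%) in females, and H3K4me1 was lost by 1 (35.7%) in males and gained by 1 (28.8%) in females. Under that setting some counts stayed while members changed. H3K27ac was gained by 4 (34.7%) in males, with Cdkn2c in place of Cdkn1a, and by 1 (17.7%) in females, Cdkn1c in place of Cdkn2d. H3K4me1 was gained by 3 (34.3%) in males, with Cdkn1c in place of Cdkn2c. It was lost by 3 (34.3%) in females, Cdkn1b, Cdkn2a and Cdkn2b. Depth is unknown, so its effect on these counts was not tested.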
